A study of Mus musculus with 24 samples.

Results

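The mitochondrial genome transcripts were followed in RNA-seq of mouse C2C12 myoblasts, a line of skeletal muscle precursor cells. They were chosen by symbol, as every gene of the count table whose symbol starts with mt-, which gave 37 of the 55291 genes: 13 mRNAs, 2 rRNAs and 22 tRNAs. The myoblasts were grown for 48 h in growth medium, and 4 cell lines were compared. The scr control carried a scrambled shRNA, and the other lines carried an shRNA against *Baf180* (*Pbrm1*), *Baf250a* (*Arid1a*) or *Brd9*, which are subunits of the PBAF, BAF and ncBAF forms of the SWI/SNF chromatin remodeling complex. All lines, the scr control included, were stable populations after lentiviral transduction and puromycin selection. Each line received no added metal (NT), 100 µM CuSO4 (Cu) or 50 µM ZnSO4 (Zn), with 2 biological replicates for each of the 12 conditions. The GEO labels name primary myoblasts where the study describes C2C12 cells, and the study's description was used. The question for these genes was how their RNA levels differed between the KD lines and scr and after each metal.

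The mitochondrial genome is a small circle that is copied and transcribed inside the mitochondrion by enzymes encoded in the nucleus. Both strands are transcribed as long precursors, and the tRNAs that lie between the other genes are cut out to free the mRNAs and rRNAs. The mRNAs encode core subunits of respiratory complexes I, III and IV and of the ATP synthase (complex V), and every other subunit of these complexes comes from the nucleus. Nuclear chromosomes also hold old insertions of mitochondrial DNA, and a read that matches both places is not assigned to either when only uniquely mapped reads are kept, as in this study.

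Such insertions covered part of the genes. In the GENCODE M21 annotation of GRCm38 (mm10), 7 pseudogenes side by side at chr1:24611535-24616197 on the minus strand were the copy of chrM 6381 to 11042. The copies of *mt-Co2*, *mt-Atp6*, *mt-Co3*, *mt-Nd4l* and of 876 bases of *mt-Nd4* had 0 differences from the mitochondrial gene over 681, 678, 783, 294 and 876 bases, the copy of *mt-Nd3* had 1 difference over 345 bases, and the copy of part of *mt-Co1* had 6 differences over 492 bases. The following sequences (GENCODE M21 transcripts, 5′ to 3′) show why reads from this stretch have 2 matching places. The first 60 bases of *mt-Co2* (subunit II of cytochrome c oxidase, chrM:7013-7072, plus strand) and of its nuclear copy *Gm28661* (chr1:24615506-24615565, minus strand) are the same. The next pair is the start of *mt-Nd3* (subunit 3 of complex I, chrM:9459-9491, plus strand) and of *Gm28438* (chr1:24613087-24613119, minus strand), with the only differing base in capitals.
mt-Co2 start: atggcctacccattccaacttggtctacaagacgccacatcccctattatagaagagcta
Gm28661 start: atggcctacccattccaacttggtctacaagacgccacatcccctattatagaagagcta
mt-Nd3 start: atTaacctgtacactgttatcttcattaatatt
Gm28438 start: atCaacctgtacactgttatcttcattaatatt

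The edges of the copied stretch, taken from the annotated ends of the pseudogenes, fell inside genes. The line for *mt-Co1* (subunit I of cytochrome c oxidase) is chrM:6341-6420 on the plus strand, where the annotated copy begins. That for *mt-Nd4* (subunit 4 of complex I) is chrM:11003-11082 on the plus strand, where it ends. Capitals mark the part within the annotated copy. They do not show the 6 differences over the 492 copied bases of *mt-Co1*. Whether the copy runs past the annotated ends was not checked.
mt-Co1 at the edge: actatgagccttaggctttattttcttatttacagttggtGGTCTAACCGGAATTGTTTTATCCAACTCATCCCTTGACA
mt-Nd4 at the edge: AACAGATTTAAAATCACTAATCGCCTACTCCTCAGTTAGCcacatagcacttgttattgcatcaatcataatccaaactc

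Counts followed these edges. The 24 libraries held 8471012 counts on the 37 genes, 1.50% of all 565870407 counts. The 7 mRNAs with bases outside the chr1 copy (*mt-Nd1*, *mt-Nd2*, *mt-Co1*, *mt-Nd4*, *mt-Nd5*, *mt-Nd6* and *mt-Cytb*) took 99.2% of the counts on mitochondrial genes. The 6 mRNAs inside it (*mt-Co2*, *mt-Atp8*, *mt-Atp6*, *mt-Co3*, *mt-Nd3* and *mt-Nd4l*) took 2084 counts, 0.0246%, and the 5 tRNAs inside it took 2 counts. The 7 pseudogenes of the chr1 copy themselves held between 161 and 756 counts each over all libraries. A less similar stretch at chr2:22587291-22590533 copies chrM 4442 to 7684, with 37 differences over the 1545 bases of its copy of *mt-Co1*. Since reads that match both places cannot be placed, the counts of the 6 mRNAs inside the chr1 stretch do not measure the amount of their RNA. Their tests are given only to account for them. The 5 tRNAs and most of *mt-Atp8* lie between the annotated pseudogenes, so their place in the copy follows from position and their sequence was not compared.

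Levels were set side by side as CPM (the usual depth-scaled read count, here with library sizes scaled by TMM factors) per kilobase of transcript. *mt-Co1* was the highest, with a mean level of 3394 ± 665 CPM per kb (SD, n = 24 libraries, range 2212 to 4285). *mt-Nd1* (subunit 1 of complex I) followed with 2521 ± 813 (range 1168 to 4070) and *mt-Cytb* (cytochrome b, the mitochondrial subunit of complex III) with 1955 ± 583 (range 890 to 3363). The order of these genes did not change between libraries: *mt-Co1* was above *mt-Nd1*, *mt-Nd1* above *mt-Cytb* and *mt-Cytb* above *mt-Nd2* in 24 of 24 libraries. *mt-Nd2*, *mt-Nd5* and *mt-Nd6*, which encode complex I subunits, had mean levels of 1196, 987 and 922 CPM per kb. These neighbours were less separate, with *mt-Nd2* above *mt-Nd5* in 21 libraries and *mt-Nd5* above *mt-Nd6* in 15 of 24. *mt-Nd4* was the lowest of the 7, with 484 ± 148 CPM per kb. Only 502 of its 1378 bases lie outside the chr1 copy, and its mean level over those bases alone was 1329 CPM per kb, between *mt-Cytb* and *mt-Nd2*. The same step raised *mt-Co1*, with 1053 of 1545 bases outside the copy, to 4980 CPM per kb. Both values assume that no read from the copied bases was counted and would be too high otherwise, as for reads over the 6 differences in *mt-Co1*. The means of the 6 mRNAs inside the copy ran from 0.333 (*mt-Nd3*) to 1.70 (*mt-Co2*).

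**Figure D1:**
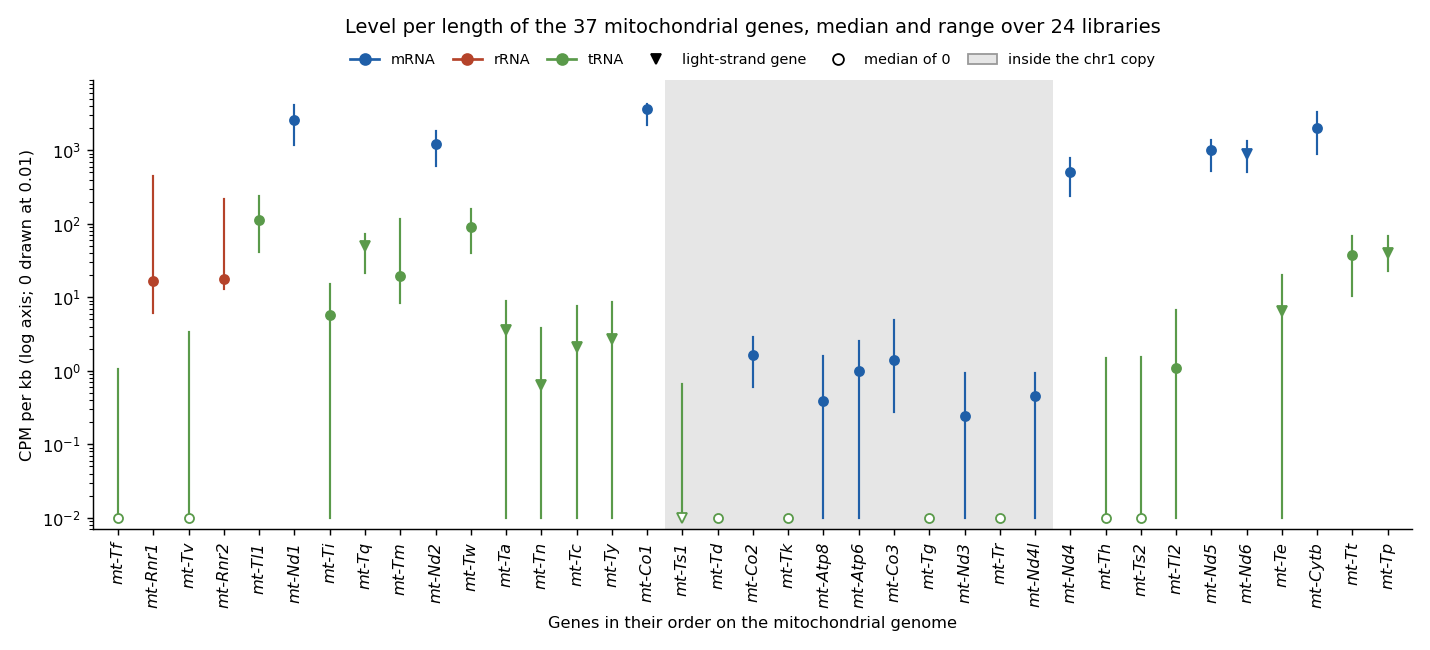
Level of each of the 37 mitochondrial genes in CPM per kb (log axis, 0 drawn at 0.01) in the order of the genes on the genome. Points are medians and lines the range over 24 libraries, triangles are genes on the light strand, and the grey area marks genes wholly inside the chr1 copy. The 7 mRNAs outside it lie between 241 and 4285 CPM per kb in every library, and those inside it stay under 5.

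The 2 rRNAs, the 12S rRNA *mt-Rnr1* and the 16S rRNA *mt-Rnr2* of the mitochondrial ribosome, had lower mean levels than any of the 7 mRNAs. Their means were 47.3 and 33.4 CPM per kb and their medians 16.7 and 17.8. The libraries were made after removal of rRNA with antisense oligonucleotides and RNase H, so these values describe what was left and not the rRNA content of the cells. *mt-Rnr1* begins at chrM:70 on the plus strand, and its first 60 bases are printed because its level varied by 73.7 times between libraries, the most of all mitochondrial genes with a count in every library.
mt-Rnr1 start: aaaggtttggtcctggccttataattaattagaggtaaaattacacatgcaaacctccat

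Of the 22 tRNA genes, 6 had a count in every library and 4 had none in any library. The RNA was fragmented before the libraries were built. Whether counts on a tRNA gene came from the free tRNA or from longer precursors that hold it was not tested, here and in the comparisons below. The 3 highest by length were *mt-Tl1* (leucine, 121 CPM per kb), *mt-Tw* (tryptophan, 88.8) and *mt-Tq* (glutamine, 47.3). *mt-Tl1* was above *mt-Tw* in 17 of 24 libraries, so their order was not fixed. The 4 tRNAs at 0 were *mt-Td* (aspartate), *mt-Tk* (lysine), *mt-Tg* (glycine) and *mt-Tr* (arginine), and all 4 lie inside the chr1 copy. A count of 0 in 565870407 allows up to 0.00530 CPM of uniquely placed reads (3 counts, counting error only). It sets no limit on the RNA if reads match the copy as well, since such reads were not counted. Whether they match was not checked, because these 4 tRNAs lie between the annotated pseudogenes and only annotated transcripts were searched. Outside the copy, *mt-Tf* (2 counts), *mt-Ts2* (4), *mt-Tv* (13) and *mt-Th* (14) were also near 0 over all libraries. The 3 highest tRNAs and the 4 without a count are shown whole, from chrM:2676-2750 (*mt-Tl1*, plus strand), chrM:4950-5016 (*mt-Tw*, plus), chrM:3772-3842 (*mt-Tq*, minus), chrM:6942-7011 (*mt-Td*, plus), chrM:7700-7764 (*mt-Tk*, plus), chrM:9391-9458 (*mt-Tg*, plus) and chrM:9808-9875 (*mt-Tr*, plus).
mt-Tl1: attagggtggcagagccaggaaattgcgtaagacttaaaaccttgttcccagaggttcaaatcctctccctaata
mt-Tw: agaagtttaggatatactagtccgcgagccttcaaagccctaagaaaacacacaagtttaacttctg
mt-Tq: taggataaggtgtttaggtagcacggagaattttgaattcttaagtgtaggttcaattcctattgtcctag
mt-Td: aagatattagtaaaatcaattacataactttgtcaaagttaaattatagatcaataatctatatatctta
mt-Tk: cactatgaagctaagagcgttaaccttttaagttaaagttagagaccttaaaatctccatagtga
mt-Tg: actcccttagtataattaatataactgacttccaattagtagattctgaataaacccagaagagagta
mt-Tr: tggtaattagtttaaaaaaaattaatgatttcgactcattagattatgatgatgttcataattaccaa

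In the libraries as a whole, total counts ran from 495778 (*Baf250a* KD with Zn, replicate 2) to 75179394, with a median of 22158430. The targeted genes were lower in their own lines: *Pbrm1* had 42.2 to 75.7 CPM in *Baf180* KD cells and 99.9 to 228 CPM elsewhere, *Arid1a* 92.0 to 144 against 206 to 338 CPM, and *Brd9* 13.8 to 17.9 against 27.2 to 53.7 CPM. The myoblast markers *Myod1*, *Des* and *Cdh15* were at 67.6 CPM or more in every library, and 8 markers of leucocytes, endothelium, epithelium and adipocytes were at 0.753 CPM or less each. The 6 myoblast markers summed to 2906 and 3199 CPM in scr NT, 1511 and 1660 CPM in *Baf180* KD, 1094 and 1220 CPM in *Baf250a* KD and 1688 and 1866 CPM in *Brd9* KD cells without metal, with 3, 4 and 4 of 6 lower and 2, 2 and 1 higher than in scr, and their part in the mitochondrial changes was not tested. The 8 other markers summed to at most 1.18 CPM in any library, and 1 of them, the epithelial *Cdh1*, was higher in untreated *Baf250a* KD cells (log2 fold change 4.31, at 0.542 and 0.753 CPM). *Pax7*, a marker of muscle stem cells, did not exceed 5.41 CPM. The replicates are described as independent, and the p-values measure the spread between 2 of them per condition. In bulk RNA, fewer mitochondrial genomes per cell and fewer transcripts per genome cannot be told apart.

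Mitochondrial mRNAs took between 0.835% and 2.12% of the counts of a library. In scr cells the share was 0.916% and 0.835% in NT, 1.39% and 1.09% with Cu, and 2.04% and 2.12% with Zn. In *Baf180* KD cells it was 1.73% and 1.47% in NT, 0.851% and 1.56% with Cu, and 1.05% and 1.15% with Zn. In *Baf250a* KD cells it was 1.27% and 1.49% in NT, 1.69% and 1.48% with Cu, and 0.883% and 1.16% with Zn. The scr control thus held both the lowest untreated pair and the highest pair of the series, and Zn stood above NT in scr and below NT in the *Baf180* and *Baf250a* KD lines. In *Brd9* KD cells the share was 1.57% and 1.82% in NT, 1.63% and 1.51% with Cu, and 1.53% and 1.69% with Zn, and the 3 conditions overlapped. Replicates of the 7 mRNAs mostly lay close together, with a median ratio of 1.11 (*mt-Co1*) to 1.22 (*mt-Nd6*) between the higher and the lower replicate. The widest gaps were those of *Baf180* KD cells with Cu, with 2.04 times as much *mt-Nd1* in replicate 2 (2663 CPM) as in replicate 1 (1307 CPM), and of *mt-Nd6* in *Baf250a* KD cells with Zn (2.53 times).

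**Figure D2:**
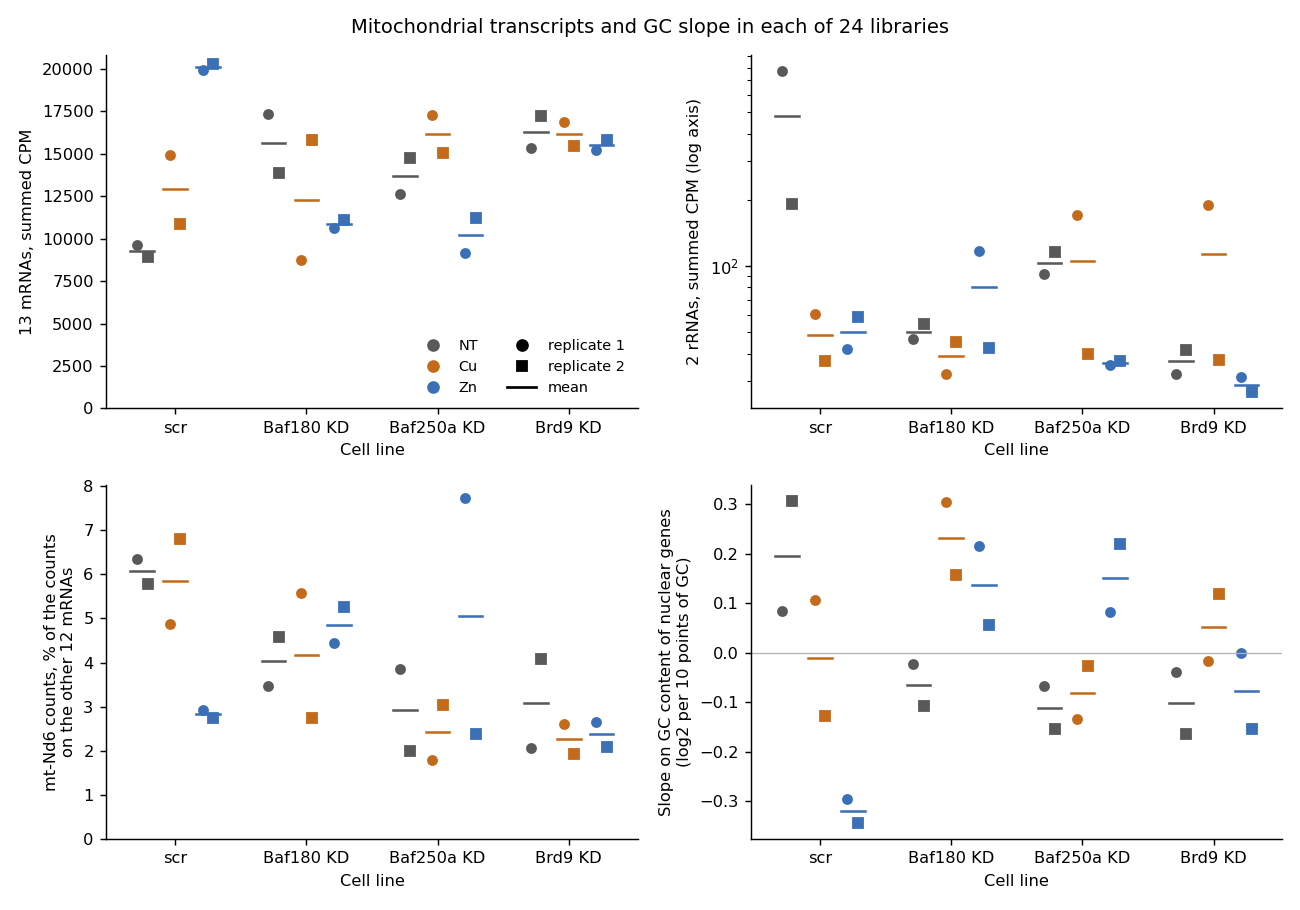
Summed CPM of the 13 mRNAs and of the 2 rRNAs (log axis), counts of *mt-Nd6* as a percent of the counts on the other 12 mRNAs, and the slope of each library's expression on the GC content of nuclear genes (log2 per 10 points of GC), in each of 24 libraries. Circles are replicate 1, squares replicate 2 and lines the mean of 2 replicates. The scr Zn libraries have the highest mRNA sums and the lowest GC slopes, and the scr NT libraries the highest rRNA sums.

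The untreated KD lines were first compared with untreated scr cells, to show what loss of each subunit was accompanied by without added metal. The 6 heavy-strand mRNAs outside the chr1 copy rose in every KD line, both rRNAs fell, and *mt-Nd6* did not follow the other mRNAs. In *Baf180* KD cells 11 of the 20 mitochondrial genes tested were DEGs (7 higher and 4 lower) by edgeR's quasi-likelihood test with Benjamini-Hochberg adjustment over all genes, against 41% of all genes (21.7% higher and 19.3% lower). In *Baf250a* KD cells 13 of 20 were DEGs (6 higher and 7 lower), against 57.8% of all genes (28.9% higher and 28.9% lower). In *Brd9* KD cells 11 of 19 were DEGs (8 higher and 3 lower), against 29.2% of all genes (15.1% higher and 14.1% lower). The shares in *Baf180* and *Baf250a* KD cells lie near those of all genes. All 3 comparisons use the same 2 scr NT libraries.

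Levels of the complex I mRNAs showed the rise library by library. *mt-Nd1* had 1557 and 1365 CPM in scr NT, 2819 and 2198 CPM in *Baf180* KD, 1937 and 2383 CPM in *Baf250a* KD, and 2893 and 3188 CPM in *Brd9* KD cells. *mt-Nd5* had 1085 and 941 CPM in scr NT, 2426 and 1961 CPM in *Baf180* KD, 1789 and 1880 CPM in *Baf250a* KD, and 1736 and 2454 CPM in *Brd9* KD cells. For both genes each KD library lay above both scr libraries. The log2 fold change of *mt-Nd1* was 0.79 ± 0.14 (SE), 0.56 ± 0.12 and 1.08 ± 0.12 in the *Baf180*, *Baf250a* and *Brd9* KD lines (adjusted p = 0.000854, 0.00137 and 0.000613). That of *mt-Nd5* was 1.13 ± 0.13, 0.86 ± 0.11 and 1.07 ± 0.17 (adjusted p = 4.87e-05, 1.82e-05 and 0.00394). *mt-Nd2* and *mt-Nd4* moved the same way, by 0.75 and 0.87 in *Baf180* KD, 0.49 and 0.72 in *Baf250a* KD, and 1.09 and 1.07 in *Brd9* KD cells, and both were DEGs in each line.

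The mitochondrial subunits of complexes III and IV rose as well. *mt-Cytb* had 1586 and 1509 CPM in scr NT, 2665 and 2308 CPM in *Baf180* KD, 1900 and 2383 CPM in *Baf250a* KD, and 2408 and 2888 CPM in *Brd9* KD cells. *mt-Co1* had 3728 and 3512 CPM in scr NT, 6620 and 5209 CPM in *Baf180* KD, 5061 and 5982 CPM in *Baf250a* KD, and 5697 and 5620 CPM in *Brd9* KD cells. No KD library reached down to the scr range for either gene. The log2 fold changes of *mt-Cytb* were 0.70, 0.47 and 0.80 and those of *mt-Co1* 0.72, 0.61 and 0.66 in the *Baf180*, *Baf250a* and *Brd9* KD lines, all DEGs. Of the mRNAs inside the chr1 copy, *mt-Co2* (0.23, -0.84 and 0.40) and *mt-Co3* (-0.38, 0.52 and 0.22) passed no test and *mt-Atp6*, a subunit of the ATP synthase, was at 1.22, 1.11 and 1.56 and a DEG in *Brd9* KD cells alone, on levels of 0.279 to 1.15 CPM. *mt-Atp8*, *mt-Nd3* and *mt-Nd4l* were below the filter on low counts in every comparison.

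*mt-Nd6* is the only mRNA of the light strand, and its 3′ end overlaps that of *mt-Nd5* on the opposite strand. The overlap is 14 bases, chrM:13552-13565, shown in capitals at the end of *mt-Nd5* (chrM:13526-13565, plus strand) and of *mt-Nd6* (chrM:13552-13591, minus strand). The libraries kept the strand of the RNA.
mt-Nd5 end: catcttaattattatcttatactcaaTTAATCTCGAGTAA
mt-Nd6 end: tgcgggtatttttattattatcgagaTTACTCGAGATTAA

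*mt-Nd6* had 576 and 488 CPM in scr NT, 583 and 607 CPM in *Baf180* KD, 468 and 289 CPM in *Baf250a* KD, and 310 and 675 CPM in *Brd9* KD cells. The *Brd9* KD replicates lay on both sides of the scr pair. Its log2 fold change was 0.18 ± 0.12 (adjusted p = 0.24) in *Baf180* KD, -0.49 ± 0.17 (0.0277) in *Baf250a* KD and -0.09 ± 0.30 (0.854) in *Brd9* KD cells. Set against the counts on the other 12 mRNAs, *mt-Nd6* was 6.36% and 5.78% in scr NT, 3.48% and 4.58% in *Baf180* KD, 3.85% and 2.00% in *Baf250a* KD, and 2.07% and 4.08% in *Brd9* KD cells. Both scr NT libraries stood above all 6 untreated KD libraries on this measure, while the whole series ranged from 1.79% to 7.73%, both in *Baf250a* KD cells with metal.

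The rRNAs went the other way. *mt-Rnr1* had 428 and 103 CPM in scr NT, 20.0 and 23.6 CPM in *Baf180* KD, 45.7 and 47.9 CPM in *Baf250a* KD, and 9.49 and 13.5 CPM in *Brd9* KD cells. *mt-Rnr2* had 347 and 88.4 CPM in scr NT and between 22.9 and 67.5 CPM in the untreated KD lines. The scr NT libraries stood above every untreated KD library, but differed from each other by 3.93 times for *mt-Rnr2*. The log2 fold changes of *mt-Rnr1* were -3.58, -2.50 and -4.52 and those of *mt-Rnr2* -2.91, -1.94 and -3.07 in the *Baf180*, *Baf250a* and *Brd9* KD lines, all DEGs. Nuclear genes that hold rRNA sequence were also highest in scr NT: they took 4.75% and 1.69% of all counts there and 0.0869% to 1.11% in the other 22 libraries. Across those 22 libraries *mt-Rnr1* ran from 5.81 to 81.7 CPM. The nuclear and mitochondrial rRNA went together in some pairs of replicates and not in others. *Brd9* KD cells with Cu had nuclear shares of 1.11% and 0.148% beside mitochondrial rRNA sums of 189 and 37.4 CPM. *Baf250a* KD cells with Cu had shares of 0.413% and 0.125% beside 171 and 39.9 CPM. In untreated *Baf250a* KD cells the shares were 0.115% and 0.0869% beside 91.7 and 115 CPM. In untreated *Baf180* KD cells they were 0.808% and 0.191% beside 46.3 and 54.3 CPM. How much of the fall came from unequal removal of rRNA was not tested.

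Among the tRNAs, 8 passed the filter in the *Baf180* and *Baf250a* KD comparisons and 7 in the *Brd9* KD comparison. *mt-Tl1* lies between *mt-Rnr2* and *mt-Nd1* and had 5.23 and 5.29 CPM in scr NT, 14.5 and 10.5 CPM in *Baf180* KD, 3.83 and 6.17 CPM in *Baf250a* KD, and 7.28 and 12.9 CPM in *Brd9* KD cells. It rose in *Baf180* and *Brd9* KD cells (log2 fold change 1.26 and 0.95), while the *Baf250a* KD libraries lay on both sides of scr (-0.08, adjusted p = 0.786). *mt-Te* (glutamate, light strand) had 0.956 and 1.39 CPM in scr NT and 0.211 to 0.538 CPM in the untreated KD lines, and fell in each of them (-1.24, -2.09 and -2.11). *mt-Tm* (methionine) fell in *Baf180* and *Baf250a* KD cells (-1.65 and -2.39), but its scr NT replicates were 1.34 and 8.08 CPM. Those of *Baf180* KD cells were 1.70 and 1.36 CPM, and the *Baf250a* KD pair had a mean of 0.949 ± 0.522 CPM (SD, n = 2). Without scr NT replicate 2 the *Baf180* KD value of *mt-Tm* became 0.20. In *Baf250a* KD cells *mt-Tq* and *mt-Tp* (proline), both on the light strand, also fell (-0.97 and -0.87). In the other lines *mt-Tq* was at -0.53 (*Baf180* KD) and -0.17 (*Brd9* KD), *mt-Tp* at 0.09 and -0.63, and *mt-Tm* at -1.91 in *Brd9* KD cells (adjusted p = 0.0691), none of them called. *mt-Tw*, *mt-Tt* (threonine), *mt-Ti* (isoleucine) and *mt-Ta* (alanine) passed no test where they were kept, with log2 fold changes from -0.75 to 0.47.

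**Figure D3:**
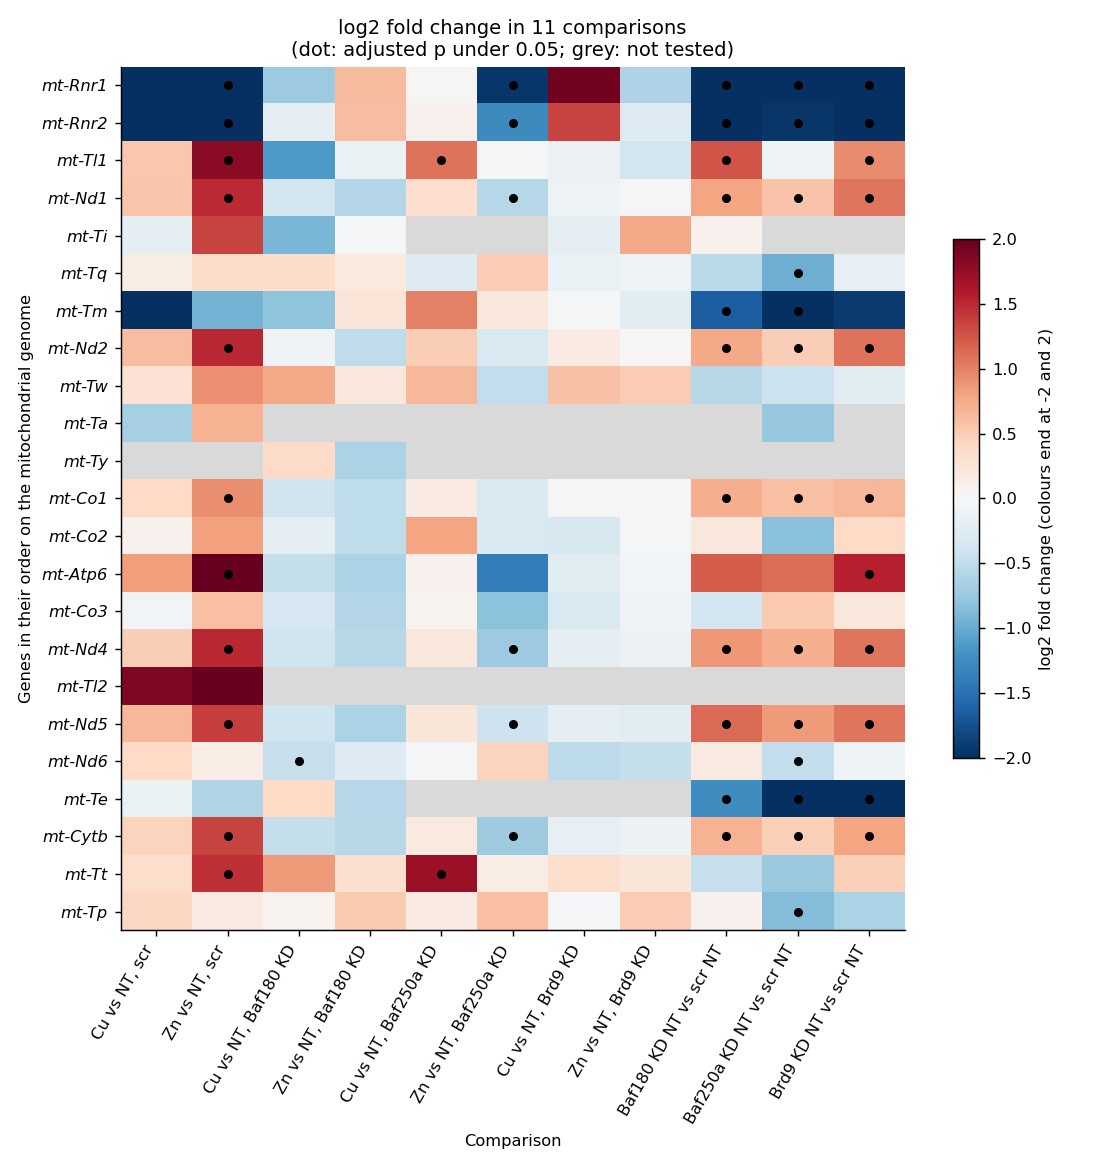
log2 fold change (colours end at -2 and 2) of the 23 mitochondrial genes that passed the filter on low counts in at least 1 of 11 comparisons, with a dot where the adjusted p is under 0.05 and grey where the gene was not tested. The columns of Zn in scr and of the untreated KD lines are red for the 6 heavy-strand mRNAs outside the chr1 copy and blue for the rRNAs, and *mt-Nd6* stays near 0 in Zn-treated scr cells.

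The partner subunits encoded in the nucleus moved opposite to the mitochondrial mRNAs in the untreated KD lines. Of 36 nuclear subunits of complex I, 27 fell and 0 rose in *Baf180* KD, 28 fell and 0 rose in *Baf250a* KD, and 27 fell and 0 rose in *Brd9* KD cells, where 19.3%, 28.9% and 14.1% of all genes were lower, with median log2 fold changes of -0.53, -0.53 and -0.56 (all genes tested: 0.03, 0.00 and 0.01). *Ndufa2*, an accessory subunit of complex I, fell by 1.09, 1.15 and 1.10. Complex III had 8 of 9 nuclear subunits lower in each KD line and 1, *Uqcrb*, higher in *Baf180* and *Baf250a* KD cells (0.75 and 0.68), with *Cyc1* (cytochrome c1) at -1.29 in *Baf250a* KD cells. *Cox4i1* of complex IV was at -0.89, -1.16 and -0.86, and 6, 9 and 9 of 11 nuclear subunits of that complex fell. Of 15 nuclear subunits of complex V 11, 13 and 11 fell, with *Atp5k* at -1.53, -1.75 and -1.40. The lists were chosen with earlier results of these data known, so their counts are a description.

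Summed levels show the same contrast per library. The 36 nuclear subunits of complex I summed to 2425 and 2782 CPM in scr NT and to 1742 to 1937 CPM in the 6 untreated KD libraries. The 5 mitochondrial subunits counted outside the copy summed to 4327 and 3911 CPM in scr NT and to 5664 to 8693 CPM in the KD libraries. For complex III the nuclear sums were 1251 and 1549 CPM in scr NT and 705 to 896 CPM in the KD lines, beside the *mt-Cytb* values above. No untreated KD library overlapped scr NT in any of these sums. CPM sums within a complex depend on gene length and were compared between libraries only.

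**Figure D4:**
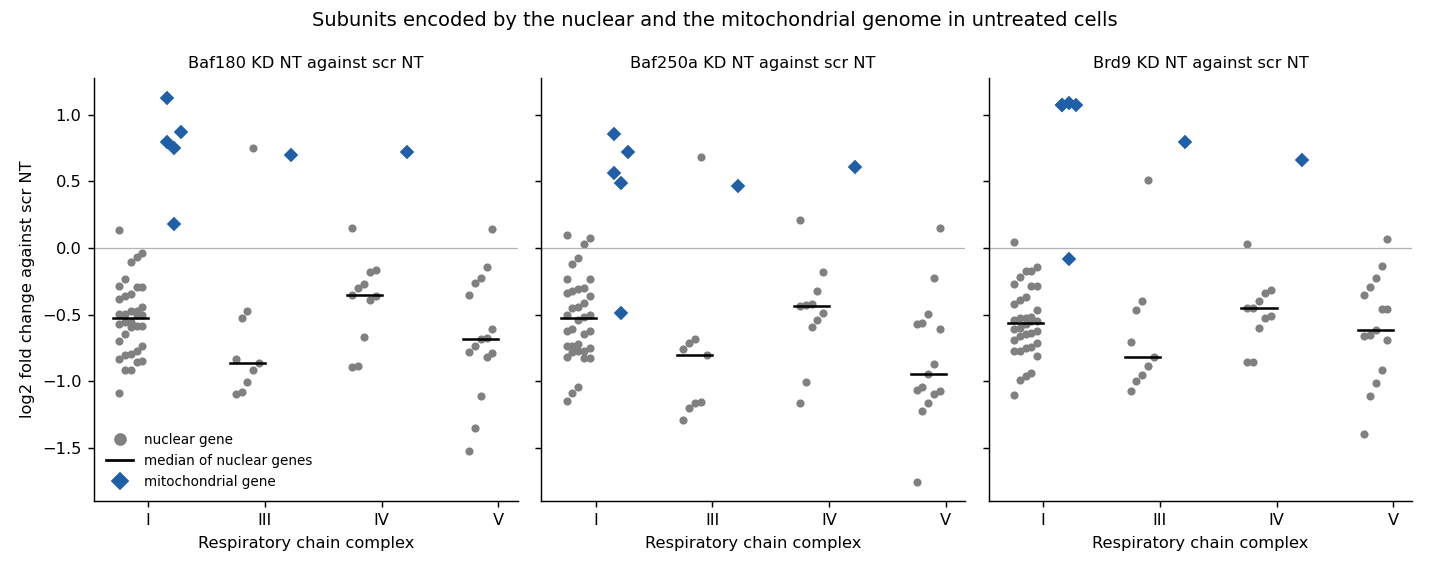
log2 fold change against scr NT of nuclear subunits (grey points, black line the median) and of mitochondrial subunits with bases outside the chr1 copy (blue diamonds) of respiratory complexes I, III, IV and V in each untreated KD line. Most nuclear subunits lie below 0 and the mitochondrial ones above 0, except *mt-Nd6* in *Baf250a* and *Brd9* KD cells. Complex V has no mitochondrial subunit outside the copy.

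Genes that act on the mitochondrial genome were less uniform. *Mterf3*, a factor of mitochondrial transcription and ribosome assembly, rose in *Baf180* and *Brd9* KD cells (0.77 and 0.67), and *Tfam*, which packages the genome and starts its transcription, fell in *Baf250a* KD cells (-0.85), as did the mitochondrial RNA polymerase *Polrmt* (-0.83). In all, 2, 3 and 2 of 9 transcription genes rose and 3, 3 and 2 fell in the *Baf180*, *Baf250a* and *Brd9* KD lines. Of 20 genes for RNA processing and modification 6, 11 and 3 fell and 0, 1 and 0 rose (all genes: 19.3%, 28.9% and 14.1% lower), with *Trit1*, which modifies tRNAs, at -1.01 and -1.06 in *Baf180* and *Baf250a* KD cells. Of 13 genes for RNA stability and decay 3, 6 and 1 fell and 0, 1 and 0 rose, among them the helicase *Supv3l1* (-0.80 in *Baf250a* KD). Of 15 genes for replication and the nucleoid 4, 5 and 3 fell and 1, 1 and 0 rose, with the mitochondrial topoisomerase *Top1mt* at -1.02, -1.61 and -0.94. Of 8 tested nuclear regulators 3, 4 and 3 fell and 1, 1 and 1 rose, with median log2 fold changes of -0.10, -0.33 and -0.06. Among them *Ppargc1a*, a coactivator of mitochondrial genes, fell by 1.17, 3.06 and 1.44, and *Gabpa* rose by 0.63, 0.47 and 0.57.

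Zn was compared with NT in each line, to show the response to the metal. In scr cells 11 of 22 mitochondrial genes tested were DEGs, against 17.6% of all genes, and 9 of them rose and 2 fell, against 10.5% and 7.13% of all genes. *mt-Nd1* had 1557 and 1365 CPM in NT and 3895 and 3889 CPM with Zn. *mt-Nd4* had 408 and 391 CPM in NT and 1038 and 1092 CPM with Zn, and *mt-Cytb* 1586 and 1509 CPM in NT and 3601 and 3848 CPM with Zn. These rises were 2.83-fold for *mt-Nd1* and *mt-Nd4* and 2.56-fold for *mt-Cytb*, with adjusted p = 0.0209, 0.00669 and 0.00669. *mt-Nd2*, *mt-Nd5* and *mt-Co1* rose by 1.50, 1.38 and 0.92 on the log2 scale, and the groups did not overlap for any of the 6. *mt-Nd6* had 576 and 488 CPM in NT and 568 and 541 CPM with Zn, which overlap (log2 fold change 0.15 ± 0.11, adjusted p = 0.376). As a percent of the counts on the other mRNAs it went from 6.36% and 5.78% to 2.93% and 2.75%.

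The remaining DEGs in scr cells were tRNAs, rRNAs and *mt-Atp6*. *mt-Tl1* rose from 5.23 and 5.29 to 16.7 and 17.7 CPM (log2 fold change 1.80) and *mt-Tt* from 0.956 and 2.51 to 4.63 and 4.63 CPM (1.46). *mt-Atp6* rose by 2.43, from 0.382 and 0.279 to 1.56 and 1.74 CPM, inside the chr1 copy, while *mt-Co2* (0.82) and *mt-Co3* (0.60) passed no test. *mt-Rnr1* fell by 3.87 and *mt-Rnr2* by 2.63, from the scr NT levels given above to 14.0 and 20.0 CPM and 27.8 and 38.4 CPM. *mt-Tw* (0.91), *mt-Ti* (1.36), *mt-Tl2* (2.54), *mt-Ta* (0.69), *mt-Tq* (0.37), *mt-Tp* (0.17), *mt-Tm* (-0.95) and *mt-Te* (-0.61) had adjusted p from 0.0533 to 0.698. Nuclear subunits fell in part, 12 of 36 for complex I, 4 of 9 for complex III, 3 of 11 for complex IV and 5 of 15 for complex V, while *Uqcrb* (0.87) and *Cox7b* (0.67) rose. Without scr NT replicate 2 or scr Zn replicate 1, 1 mitochondrial gene was called, and 0 without scr Zn replicate 2. The median log2 fold change of the 7 mRNAs lay between 1.29 and 1.49 in the 4 fits that each leave out 1 library.

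In *Baf250a* KD cells Zn went with lower mitochondrial RNA: 6 of 18 genes tested fell and 0 rose, against 15.9% DEGs, 7.02% lower and 8.85% higher among all genes. *mt-Cytb* had 1900 and 2383 CPM in NT and 1018 and 1594 CPM with Zn (log2 fold change -0.71 ± 0.16, adjusted p = 0.00354). *mt-Nd1* had 1937 and 2383 CPM in NT and 1118 and 1769 CPM with Zn (-0.58 ± 0.16, adjusted p = 0.0167). *mt-Nd4* fell by 0.72 and *mt-Nd5* by 0.42, and *mt-Rnr1* and *mt-Rnr2* by 1.95 and 1.28. The NT and Zn groups did not overlap for these 6 genes, which were among 9 of the 18 tested without overlap. *mt-Nd2* (-0.30), *mt-Co1* (-0.30), *mt-Nd6* (0.45), *mt-Co2* (-0.31), *mt-Atp6* (-1.38), *mt-Co3* (-0.82) and the tRNAs *mt-Tl1* (-0.03), *mt-Tq* (0.50), *mt-Tm* (0.23), *mt-Tw* (-0.49), *mt-Tt* (0.16) and *mt-Tp* (0.61) passed no test. The nuclear subunits of complex I were higher in 15 of 36 cases and lower in 0, with *Ndufb3* at 0.74, and 7 of 15 of complex V were higher and 1 lower, with *Atp5j2* at 1.13. Replicate 2 of the Zn pair is the library of 495778 counts: without it 9 genes were called, 8 of them lower, with a median of -0.65 for the 7 mRNAs, and without replicate 1, which leaves only that library, 0 were called. DESeq2 called 1 gene, the fit of all 24 libraries 0, and the fit corrected for GC content none of the 6.

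The other KD lines gave few calls with Zn. In *Baf180* KD cells 0 of 21 genes were called by edgeR, against 0.0197% of all genes, with 6 at an unadjusted p under 0.05 (13.1% of all genes) and 0 called by DESeq2. All 7 mRNAs lay lower with Zn, *mt-Nd1* at 1609 and 1760 CPM against 2819 and 2198 CPM in NT, with log2 fold changes from -0.64 (*mt-Nd5*) to -0.26 (*mt-Nd6*). *mt-Rnr1* and *mt-Rnr2* were at 0.63 and 0.61, and *mt-Co2*, *mt-Atp6* and *mt-Co3* at -0.51, -0.64 and -0.58. In *Brd9* KD cells 0 of 19 were called by edgeR, against 0.0334% of all genes, with 1 at an unadjusted p under 0.05 (3.01% of all genes) and 0 called by DESeq2. There *mt-Nd1* had 2893 and 3188 CPM in NT and 2764 and 3155 CPM with Zn, and the log2 fold changes of the 7 mRNAs ran from -0.48 (*mt-Nd6*) to 0.02 (*mt-Nd2*). The rRNAs were at -0.61 and -0.25, and *mt-Co2*, *mt-Atp6* and *mt-Co3* at -0.03, -0.05 and -0.08. Averaged over the 4 lines, Zn called 0 of 22 mitochondrial genes by edgeR (0.284% of all genes), 3 at an unadjusted p under 0.05 (9.5% of all genes) and 0 by DESeq2, with values from -0.06 (*mt-Nd6*) to 0.16 (*mt-Nd2*) for the 7 mRNAs.

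The Zn responses of the lines were tested against that of scr. In *Baf180* KD cells the response differed for 10 of 22 genes, against 28.7% of all genes, 8 of them lower, against 12.6% of all genes. *mt-Nd1*, *mt-Nd4*, *mt-Nd5* and *mt-Cytb* responded by 1.99, 1.96, 1.92 and 1.81 less on the log2 scale than in scr (adjusted p = 0.000974, 0.00094, 0.00094 and 0.000974), and *mt-Rnr1* and *mt-Rnr2* by 4.60 and 3.34 more. In *Baf250a* KD cells 8 of 22 differed, all lower, against 30.5% of all genes and 13.2% lower. *mt-Cytb*, *mt-Nd4* and *mt-Nd1* were at -2.01, -2.14 and -2.02. In *Brd9* KD cells 8 of 22 differed, all lower, against 11.1% of all genes and 5.25% lower, with *mt-Nd4* at -1.53 and *mt-Nd1* at -1.45 (adjusted p = 0.0237 and 0.0249). This count became 0 with the correction for GC content, and also without *Brd9* KD NT replicate 2, *Brd9* KD Zn replicate 1, scr NT replicate 2 or either scr Zn replicate. *mt-Nd6* passed the test in none of the 3, at -0.30, 0.34 and -0.52. *mt-Tl1* responded less than in scr in each line (-1.83, -1.74 and -2.07), and *mt-Tw*, *mt-Tt*, *mt-Tq*, *mt-Tp*, *mt-Tm* and *mt-Te* passed no test. All 3 differences share the 4 scr libraries of NT and Zn.

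Cu was compared with NT in the same way. In scr cells 0 of 22 mitochondrial genes were called by edgeR, against 0.0333% of all genes, with 11 at an unadjusted p under 0.05 (10.4% of all genes) and 3 called by DESeq2. *mt-Nd1* had 2482 and 1792 CPM with Cu against 1557 and 1365 CPM in NT, and *mt-Nd5* 1895 and 1295 against 1085 and 941 CPM. None of the 7 mRNAs was called, with log2 fold changes from 0.40 (*mt-Nd6*) to 0.67 (*mt-Nd5*) and adjusted p from 0.447 to 0.479. *mt-Rnr1* was at -3.93 and *mt-Rnr2* at -2.83 (adjusted p = 0.254 and 0.397), again against the scr NT pair. *mt-Atp6* was at 0.84, *mt-Co2* at 0.09 and *mt-Co3* at -0.05.

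In *Baf180* KD cells with Cu 1 of 21 genes was called, against 13.8% of all genes. *mt-Nd6* fell from 583 and 607 CPM in NT to 461 and 423 CPM (log2 fold change -0.47 ± 0.11, adjusted p = 0.0253), and the groups did not overlap. This call was lost in 3 of the 4 fits without 1 library and with all 24 libraries in the fit, and with the correction for GC described below the value was 0.07. With the replicate number as a block 4 genes were called, 1 higher and 3 lower. The other 6 mRNAs outside the copy lay between -0.48 (*mt-Cytb*) and -0.07 (*mt-Nd2*), and their NT and Cu groups overlapped. *mt-Tl1* was at -1.15, *mt-Tw* at 0.77, *mt-Tt* at 0.85, *mt-Tm* at -0.81, *mt-Ti* at -0.92, *mt-Tq* at 0.36, *mt-Te* at 0.39, *mt-Ty* at 0.38 and *mt-Tp* at 0.06, none of them called. *mt-Rnr1* (-0.73), *mt-Rnr2* (-0.20), *mt-Co2* (-0.19), *mt-Atp6* (-0.47) and *mt-Co3* (-0.34) passed no test either.

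In *Baf250a* KD cells with Cu 2 of 18 genes were called, against 1.27% of all genes, and both were tRNAs. *mt-Tl1* had 11.2 and 9.74 CPM with Cu against 3.83 and 6.17 CPM in NT (log2 fold change 1.09 ± 0.19, adjusted p = 0.00174), and *mt-Tt* 3.39 and 3.63 CPM against 0.697 and 1.46 CPM (1.73 ± 0.35, adjusted p = 0.00853). Both groups were separate, and neither tRNA was called by DESeq2, which called 0 members. The 7 mRNAs lay between -0.02 (*mt-Nd6*) and 0.50 (*mt-Nd2*), and *mt-Rnr1* and *mt-Rnr2* at 0.02 and 0.08. *mt-Co2* (0.79), *mt-Atp6* (0.09), *mt-Co3* (0.08), *mt-Tm* (1.01), *mt-Tw* (0.67), *mt-Tp* (0.16) and *mt-Tq* (-0.26) were not called. In *Brd9* KD cells 0 of 19 were called by edgeR, against 0.274% of all genes, with 3 at an unadjusted p under 0.05 (16.2% of all genes) and 0 called by DESeq2. There the 7 mRNAs lay between -0.52 (*mt-Nd6*) and 0.17 (*mt-Nd2*), *mt-Co2*, *mt-Atp6* and *mt-Co3* at -0.32, -0.20 and -0.30, and *mt-Rnr1* and *mt-Rnr2* at 1.93 and 1.35. The *mt-Rnr1* replicates with Cu were 81.7 and 9.22 CPM.

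Averaged over the 4 lines, Cu called 2 of 22 mitochondrial genes, near the share of all genes (7.86%). Both were tRNAs: *mt-Tw* (0.59 ± 0.14, adjusted p = 0.0135) and *mt-Tt* (0.83 ± 0.25, adjusted p = 0.0439). Leaving out 1 library gave 1 to 3 calls, and DESeq2 and RLE size factors each lowered the count. *mt-Tw* had 3.82 and 7.15 CPM in scr NT and 6.16 and 7.16 CPM with Cu, 4.80 and 2.72 against 5.84 and 7.13 CPM in *Baf180* KD, 3.64 and 4.71 against 7.39 and 5.69 CPM in *Baf250a* KD, and 5.49 and 3.98 against 6.47 and 8.33 CPM in *Brd9* KD cells. The groups did not overlap in the 3 KD lines and overlapped in scr. The 7 mRNAs lay between -0.13 (*mt-Nd6*) and 0.32 (*mt-Nd2*) in this mean, and *mt-Rnr1* and *mt-Rnr2* at -0.66 and -0.38. The Cu response differed from that of scr for 3 of 22 genes in *Baf180* KD cells, near the share of all genes (12.8%): *mt-Nd5* at -1.02, *mt-Tl1* at -1.64 and *mt-Rnr2* at 2.67. It differed for 0 of 22 in *Baf250a* KD cells by edgeR (0.0121% of all genes), with 3 at an unadjusted p under 0.05 (7.71% of all genes) and 0 by DESeq2. In *Brd9* KD cells it differed for 0 of 22 by edgeR (0.0363% of all genes), with 4 at an unadjusted p under 0.05 (16.7% of all genes) and 2 by DESeq2.

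GC content moved with these values in part of the libraries. The 7 mRNAs have a GC content of 34.1% to 39.9% with a median of 37.1%, while nuclear protein-coding genes have a median of 48.7%, and 3.81% of them lie under 37.1%. For each library a slope was fitted of its log2 expression, relative to the mean of all libraries, on the GC content of nuclear genes. The scr Zn libraries had the lowest slopes (-0.297 and -0.344 per 10 points of GC) and the highest shares of mitochondrial mRNA. The libraries with the highest slopes, scr NT replicate 2 (0.307) and *Baf180* KD with Cu replicate 1 (0.305), had the lowest shares, 0.835% and 0.851%. The replicate of the latter had a slope of 0.157 and a share of 1.56%. Other libraries did not follow this order: the scr Cu replicates had slopes of 0.108 and -0.128 with shares of 1.39% and 1.09%, and *Brd9* KD with Cu replicate 2 a slope of 0.119 with 1.51%. *Baf250a* KD slopes were -0.0676 and -0.155 in NT and 0.0832 and 0.220 with Zn. The fits were therefore repeated with a smooth trend on GC content and length removed from each library.

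With that correction the median log2 fold change of the 7 mRNAs went from 1.38 to 0.47 for Zn in scr cells, and the calls were 3 (*mt-Rnr1*, *mt-Rnr2* and *mt-Tl1*). In the untreated lines the medians went from 0.75 to 0.46 in *Baf180* KD, from 0.56 to 0.25 in *Baf250a* KD and from 1.07 to 0.48 in *Brd9* KD cells, with 9, 10 and 10 genes called. The shares of all genes called in the corrected fits are not given here, so these counts cannot be read as particular to mitochondrial genes. With the correction *mt-Nd1* was at 0.52, 0.25 and 0.70 and *mt-Nd5* at 0.67, 0.35 and 0.47, still DEGs, while *mt-Nd2* was a DEG in *Brd9* KD cells alone (0.41, 0.10 and 0.63) and *mt-Cytb* no longer one in *Baf250a* KD cells (0.22, adjusted p = 0.0586). For Zn in *Baf250a* KD cells the median became 0.02, none of the 6 earlier calls remained, and *mt-Nd6* was called instead, higher by 0.92. The Zn response relative to scr went from -1.92 to -0.68 in *Baf180* KD, from -1.74 to -0.31 in *Baf250a* KD and from -1.38 to -0.51 in *Brd9* KD cells. The genes called there were *mt-Rnr1*, *mt-Rnr2* and *mt-Tl1* in *Baf180* KD and *mt-Atp6*, *mt-Rnr2* (2.70) and *mt-Nd6* (1.70) in *Baf250a* KD cells, the last 2 not called without the correction, and 0 in *Brd9* KD cells. The nuclear subunits of complex I were lower in 26, 25 and 21 of 36 cases and higher in 1, 1 and 0 in the untreated KD lines. For complex III 8, 8 and 7 of 9 were lower and 1, 1 and 0 higher. For complex IV 5, 6 and 5 of 11 were lower, and for complex V 11, 13 and 11 of 15. For Zn in scr cells 2 were lower for complex I, 0 for complex III, 2 for complex IV and 0 for complex V.

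**Figure D5:**
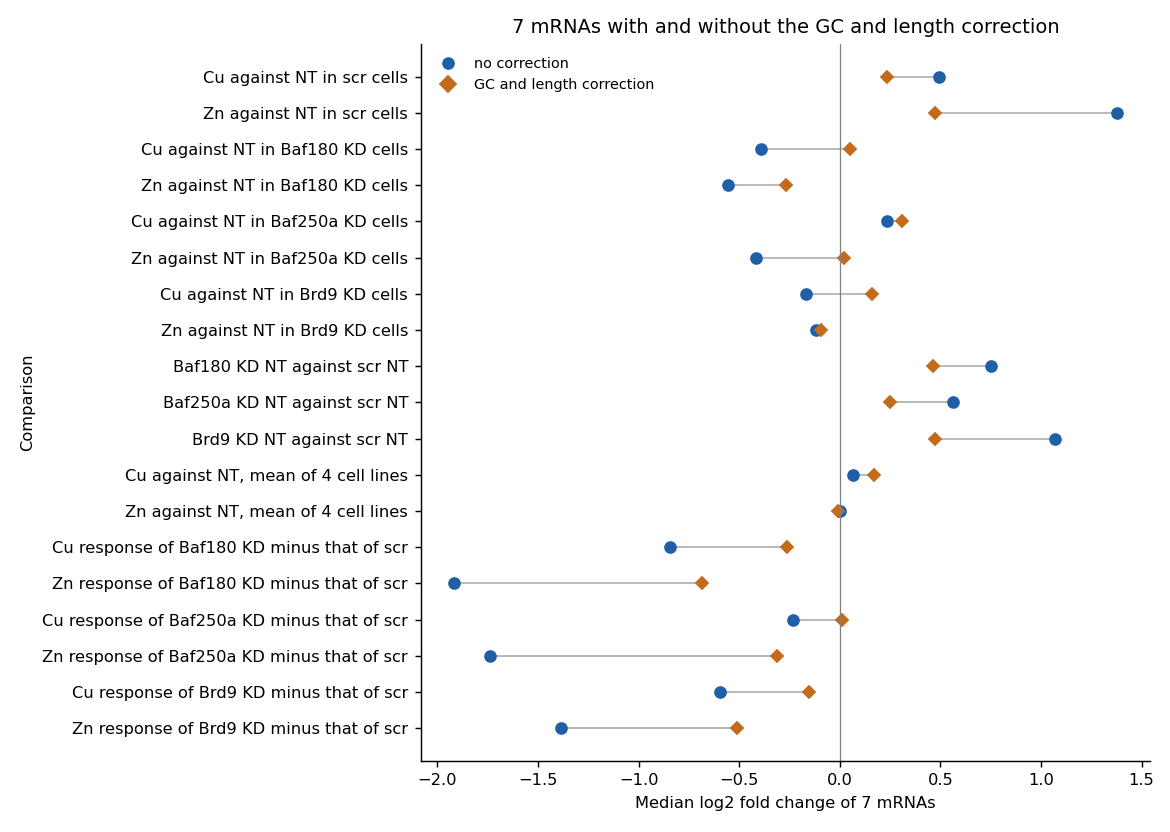
Median log2 fold change of the 7 mRNAs with bases outside the chr1 copy in 19 comparisons, without (circles) and with (diamonds) the correction for GC content and length. The value moves from 1.38 to 0.47 for Zn in scr cells and stays above 0 in the 3 untreated KD lines.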

How the data were processed

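RNA-seq was measured in 24 libraries of 12 conditions. The authors removed rRNA, built strand-specific libraries, aligned read pairs to mm10 with STAR, keeping uniquely mapped reads only, and counted per gene with featureCounts. The deposited values are raw integer counts, without any scaling by the authors. The submitters' processing notes also name deepTools and DESeq2. The deposited DESeq2 tables hold the authors' own comparisons and were not used. Groups follow the sample titles, because the treatment given elsewhere in the labels disagrees with most of them.

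Counts were tested in R 4.3.3 with edgeR 4.0.16's quasi-likelihood test (TMM, filterByExpr, Benjamini-Hochberg adjusted p under 0.05 over all genes). A metal against NT used the 6 libraries of a line, a KD against scr the 4 untreated libraries, and means over lines and differences between responses all 24 libraries. There are 19 comparisons. Statements that groups do or do not overlap describe 2 libraries per condition and are not tests. The share of all genes without overlap is not given here, so such statements cannot be read as particular to mitochondrial genes. GC content, length, coordinates and sequences came from GENCODE M21 (GRCm38), which matched all 37 genes. The correction for GC content and length used a spline with 5 degrees of freedom per library as an offset. Copies were searched among annotated transcripts in windows of up to 100 bases. The rRNA-derived genes are 6 nuclear symbols. The mitochondrial genes and the nuclear lists were chosen with earlier results of these data known. All mRNAs and rRNAs are named, tRNAs where they were kept beside a called gene (as a range or by name in fits of 24 libraries), and of each nuclear list genes among the 2 largest called changes. After filterByExpr, 18 mitochondrial genes were tested in each of the 11 comparisons within a line or between untreated lines, 5 in some of them and 14 in none.

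Total counts of 495778 to 75179394 per library set the precision, and intervals and floors cover counting error only. In simulated counts, 70.5% of 200 genes with a set log2 change of 1 were recovered for Zn in scr cells (15002 genes) and 74.0% for untreated *Baf250a* KD cells (14971 genes), with 9 and 5 unchanged genes called. Alternatives were RLE size factors, all genes with at least 1 count, DESeq2 1.42.0, the correction for GC content and length, the replicate number as a block, all 24 libraries in the fit and leaving out each library. Correlations of same-numbered libraries ran from -0.139 to 0.225. They exceeded 0.1 in every pair of conditions in *Baf180* KD cells alone (0.105 to 0.202), so the blocked value is given beside a result of that line where it moves the count, and the numbers were not taken as pairs elsewhere.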

Additional observations from a re-analysis of the deposited data

Results flagged for a closer look

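The results listed here are genes for which the response of a KD line to a metal differed from the response of scr cells in the test of that difference (edgeR's quasi-likelihood test over 24 libraries, 12 conditions). All values are differences between 2 log2 fold changes, KD line minus scr, and all share the scr libraries.

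For Cu, *Baf180* KD cells differed for 3 of 22 genes, near the share of all genes (12.8%): *mt-Nd5* (-1.02), *mt-Tl1* (-1.64) and *mt-Rnr2* (2.67). Leaving out 1 library gave 0 to 7 calls, and the correction for GC content and length lowered the count. For Zn, *Baf180* KD cells differed for *mt-Nd1* (-1.99), *mt-Nd2* (-1.92), *mt-Co1* (-1.33), *mt-Nd4* (-1.96), *mt-Nd5* (-1.92), *mt-Cytb* (-1.81), *mt-Tl1* (-1.83) and *mt-Atp6* (-2.96), and in the other direction for *mt-Rnr1* (4.60) and *mt-Rnr2* (3.34). *Baf250a* KD cells differed for *mt-Nd1* (-2.02), *mt-Nd2* (-1.74), *mt-Co1* (-1.17), *mt-Nd4* (-2.14), *mt-Nd5* (-1.74), *mt-Cytb* (-2.01), *mt-Tl1* (-1.74) and *mt-Atp6* (-3.72). *Brd9* KD cells differed for *mt-Nd1* (-1.45), *mt-Nd2* (-1.38), *mt-Co1* (-0.85), *mt-Nd4* (-1.53), *mt-Nd5* (-1.51), *mt-Cytb* (-1.38), *mt-Tl1* (-2.07) and *mt-Atp6* (-2.37). Among all genes 28.7%, 30.5% and 11.1% differed for Zn in the *Baf180*, *Baf250a* and *Brd9* KD lines.

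The GC slopes of the scr libraries differed between NT (0.0835 and 0.307) and Zn (-0.297 and -0.344) by more than in any other line. After correcting each library for GC content and gene length, 3, 3 and 0 genes differed for Zn in *Baf180*, *Baf250a* and *Brd9* KD cells. Of the genes named above these were *mt-Rnr1*, *mt-Rnr2* and *mt-Tl1* in *Baf180* KD cells and *mt-Atp6* alone in *Baf250a* KD cells, where *mt-Rnr2* (2.70) and *mt-Nd6* (1.70) were called only with the correction. The scr NT libraries, which enter every one of these differences, also held the most counts on the rRNA-derived nuclear genes (4.75% and 1.69% of all counts, against at most 1.11% in the other libraries), and the part of this in the 2 rRNA differences was not tested. *mt-Atp6* lies inside the chr1 copy and has few counts.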

How the results depend on the processing

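The number of mitochondrial genes called in the untreated KD lines (11, 13 and 11 in *Baf180*, *Baf250a* and *Brd9* KD cells) stayed within 1.5 times under every alternative, 9 to 12, 9 to 14 and 9 to 11 when 1 library was left out. With all genes of at least 1 count tested, calls became 10 for Cu in scr (from 0), 9 for Cu and 8 for Zn in *Baf180* KD (from 1 and 0), 4 for Cu in *Baf250a* KD (from 2), 4 for Cu and 1 for Zn in *Brd9* KD (from 0), 6 and 3 for the means of Cu and Zn (from 2 and 0), and 10, 3 and 8 for the Cu response of *Baf180*, *Baf250a* and *Brd9* KD minus that of scr (from 3, 0 and 0). DESeq2 called 3 for Cu in scr, 0 for Cu and 1 for Zn in *Baf250a* KD (from 2 and 6), 1 for the mean of Cu and 2 for the Cu response of *Brd9* KD minus scr. It shifted the median of all genes by 0.11 for Zn in *Baf250a* KD and by 0.20 for the Zn response of *Baf250a* KD minus scr. RLE size factors called 1 for the mean of Cu. With all 24 libraries in the fit, 2 were called for Cu in scr and 0 for Cu and for Zn in *Baf250a* KD. Correcting for GC content and length gave 3 calls for Zn in scr (from 11), 1 for Zn in *Baf250a* KD, 1 for the Cu response of *Baf180* KD minus scr, and 3, 3 and 0 for the Zn responses of *Baf180*, *Baf250a* and *Brd9* KD minus scr (from 10, 8 and 8). The cause of these shifts was not tested. The shares of all genes called in these alternative fits are not given here, so a changed count cannot be read as specific to mitochondrial genes. The correction also turned the sign of *mt-Nd6* for Cu in *Baf180* KD (0.0657) and of *mt-Nd5* for Zn in *Baf250a* KD (0.11), and leaving out 1 library gave *mt-Tm* in untreated *Baf180* KD cells values from -2.40 to 0.20, the latter without scr NT replicate 2.

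With the replicate number as a block, 4 genes were called for Zn in scr, 4 for Cu in *Baf180* KD, and 5 and 1 for the Cu responses of *Baf180* and *Brd9* KD minus scr, and no other count moved by over 1.5 times. Pairing replicates crosswise for untreated *Baf180* KD against scr, added after seeing the data because same-numbered libraries correlated at -0.109, gave 13 calls. Leaving out 1 library gave 0 to 1 (Cu) and 0 to 11 (Zn) calls in scr, 0 to 7 and 0 to 1 in *Baf180* KD, 0 to 5 and 0 to 9 in *Baf250a* KD, 0 to 2 and 0 to 0 in *Brd9* KD, and 1 to 3 and 0 to 0 for the means. For responses minus that of scr it gave 0 to 7 (Cu) and 9 to 10 (Zn) in *Baf180* KD, 0 to 1 and 5 to 10 in *Baf250a* KD, and 0 to 2 and 0 to 8 in *Brd9* KD, the 0 for Zn without *Brd9* NT replicate 2, *Brd9* Zn replicate 1, scr NT replicate 2 or either scr Zn replicate. Of 980 fold changes of called genes under an alternative 744 stayed called in the same direction, 233 lost the call and 3 turned sign. Levels per base outside the chr1 copy moved *mt-Co1* to 4980 and *mt-Nd4* to 1329 CPM per kb. Several tRNAs outside the copy had few counts, which limits their tests, and why they were low was not tested.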
